A study of Mus musculus with 2 samples.

Results

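The 10 genes Cd3d, Cd3e, Cd3g, Cd247, Cd4, Cd8a, Cd8b1, Cd2, Cd5 and Cd6 encode the signalling chains of the T cell receptor complex, its coreceptors and 3 further T cell surface proteins. They are 10 of 21938 protein-coding genes of GENCODE vM21 on GRCm38 (mm10). For each gene, every peak of both peak lists that touched the gene body or the 20 kb on each side of it was taken, and the distance of its summit to the 5' end of the gene was measured. The data come from scFFPE-ATAC, a single-cell assay of open chromatin for tissue that was fixed in formalin and embedded in paraffin (FFPE). Tn5 transposase cuts and tags the open DNA of isolated nuclei, and rounds of ligation then give each nucleus its barcode. Both libraries were made from FFPE spleen of C57BL/6J mice, and they differ in how the assay was set up. The first was made in a 50 µL Tn5 reaction and is called the 50 µL library here. The second was made from nuclei that were not cleaned by density gradient centrifugation, the step that parts nuclei from debris. By the methods the usual reaction of the assay was 100 µL at the same Tn5 concentration. The sources used here do not say for the 50 µL library by name that its nuclei went through the gradient. There was 1 library for each condition, the number of animals is not stated, and no spread between replicates can be given.

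T cells recognise antigen through a receptor whose variable chains cannot signal alone. The CD3 delta, epsilon and gamma chains and the zeta chain, which Cd247 encodes, carry the signalling motifs that are phosphorylated when antigen is bound. CD4 and CD8 bind MHC class II and class I molecules and bring the kinase Lck to the receptor, and CD2, CD5 and CD6 tune adhesion and signal strength. Spleen holds T cells in the sheaths around its arterioles, beside many B cells and myeloid cells. Several of the genes are also used by other spleen cells, for example Cd247 by natural killer cells, Cd5 by a subset of B cells and Cd8a by some dendritic cells.

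The 50 µL list held 89382 peaks and the list without gradient centrifugation 25343 peaks. The median fold enrichment, which is the read pileup at a summit over the local background, was 3.29 in the 50 µL list and 5.24 without gradient centrifugation. The median −log10 q, the significance that the peak caller gave, was 13.1 in the 50 µL list and 10.4 without gradient centrifugation. The lists hold neither the reads nor the cells behind them, and both measures move with depth, so they are given to place a peak within its own list. Peaks were called over all cells of a library together, so a lower share of T cells and less open DNA in each T cell cannot be told apart.

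Open chromatin was found around all 10 genes in the 50 µL library, and around 7 of them without gradient centrifugation. Among all protein-coding genes, 76.2% had a peak in the same kind of window in the 50 µL library and 66.3% without gradient centrifugation. The windows held 83 distinct peaks in the 50 µL library and 13 without gradient centrifugation, and they covered 31296 bp in the 50 µL library and 3872 bp without gradient centrifugation. Peaks were more densely spaced than at a typical gene in the 50 µL library. The median over the 10 genes was 14.4 peaks per 100 kb, against 6.59 over all protein-coding genes. Without gradient centrifugation the medians were 3.54 peaks per 100 kb for the 10 genes and 1.95 over all protein-coding genes. Cd8a, Cd8b1 and Cd6 were the 3 genes with no peak in that library.

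**Figure D1:**
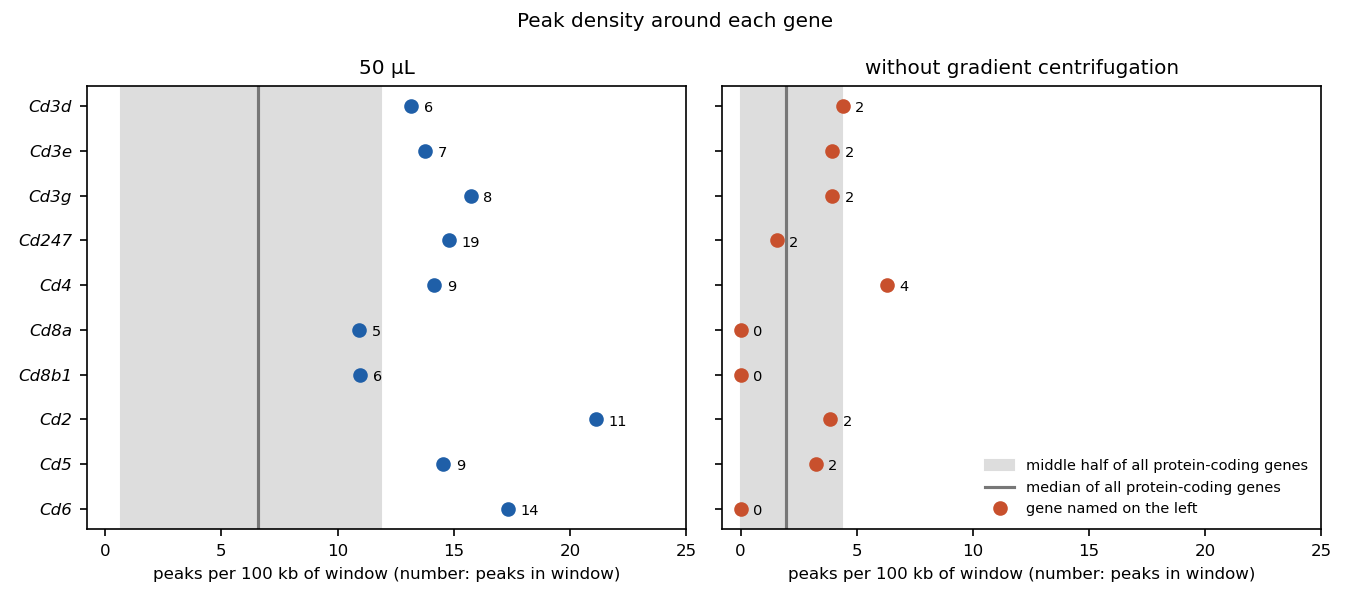
Peaks per 100 kb of window (gene body plus 20 kb each side) for each of the 10 genes, in the 50 µL library (left) and without gradient centrifugation (right). Grey marks the middle quartiles (band) and the median (line) of all 21938 protein-coding genes, and the number beside a point is its peak count. In the 50 µL library all 10 genes lie above the median, and 8 lie above the grey band. Without gradient centrifugation Cd8a, Cd8b1 and Cd6 lie at 0.

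The order of density in the 50 µL library ran from Cd2 at 21.1 peaks per 100 kb, above 97.0% of protein-coding genes, through Cd6 at 17.3 and Cd3g at 15.7, to Cd8b1 at 11.0 and Cd8a at 10.9. Cd247, Cd5, Cd4, Cd3e and Cd3d lay between 13.2 and 14.8, close to each other. Without gradient centrifugation Cd4 was densest with 6.30 peaks per 100 kb, above 86.8% of protein-coding genes, and Cd247 had 1.56. In that library every other gene with a peak had 2, so their order followed window length alone. Cd247 was lowest among them because its window was the longest, at 128.6 kb. The 4 peaks of Cd4 were all nearest to the 5' ends of other genes. These counts give no order that can be compared with that of the 50 µL library. With 1 library each, neither order can be set against a replicate.

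Few of the peaks lay at the 5' end of the gene whose window held them. A gene was counted as having a 5' end peak when a peak came within 1 kb of the outer 5' end of its model. Such a peak was found in the 50 µL library for 7 of the 10 genes, namely Cd3e, Cd247, Cd8a, Cd8b1, Cd2, Cd5 and Cd6, against 51.9% of all protein-coding genes. Without gradient centrifugation 1 of the 10 had one, Cd5, against 39.6% of all protein-coding genes. No peak came within 1 kb of the outer 5' end of Cd3d, Cd3g or Cd4 in either library. A later annotated transcript start of Cd3d did have a peak within 1 kb in both libraries. Of all pairs of a gene and a peak in its window, 10 of 94 (10.6%) in the 50 µL library and 1 of 16 (6.25%) without gradient centrifugation were at the gene's own 5' end. Over all protein-coding genes these shares were 13.0% in the 50 µL library and 23.8% without gradient centrifugation.

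Peak number alone sets much of such a count, so the counts were repeated with as many 50 µL peaks as the other list holds, the 25343 with the highest −log10 q. Of the 10 genes, 4 then kept a 5' end peak (Cd247, Cd8a, Cd8b1 and Cd5), against 41.3% of all protein-coding genes. All 10 still had a peak in the window, against 66.8% of all protein-coding genes. At equal list length, 4 genes in the 50 µL library and 1 without gradient centrifugation thus had a 5' end peak, a difference of 3 genes that no replicate allows to be tested.

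The 5' ends of these genes are poor in CpG dinucleotides, the feature of broadly used promoters. Over the 300 bp around the 5' end (250 bp before and 50 bp after it), the ratio of observed to expected CpG lay between 0.0774 at Cd3d and 0.501 at Cd4, with a median of 0.200, against a median of 0.525 over all protein-coding genes. Of the 10596 protein-coding genes with a ratio no higher than that of Cd4, 23.3% had a 5' end peak in the 50 µL library, 14% in the 50 µL list of equal length and 12.5% without gradient centrifugation. Against genes of this kind, the 7 of 10 and the 4 of 10 of the 50 µL library are a larger share, and the 1 of 10 without gradient centrifugation is close to the background. Base composition was the only feature used for this comparison, and the part of expression in it was not tested.

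**Figure D2:**
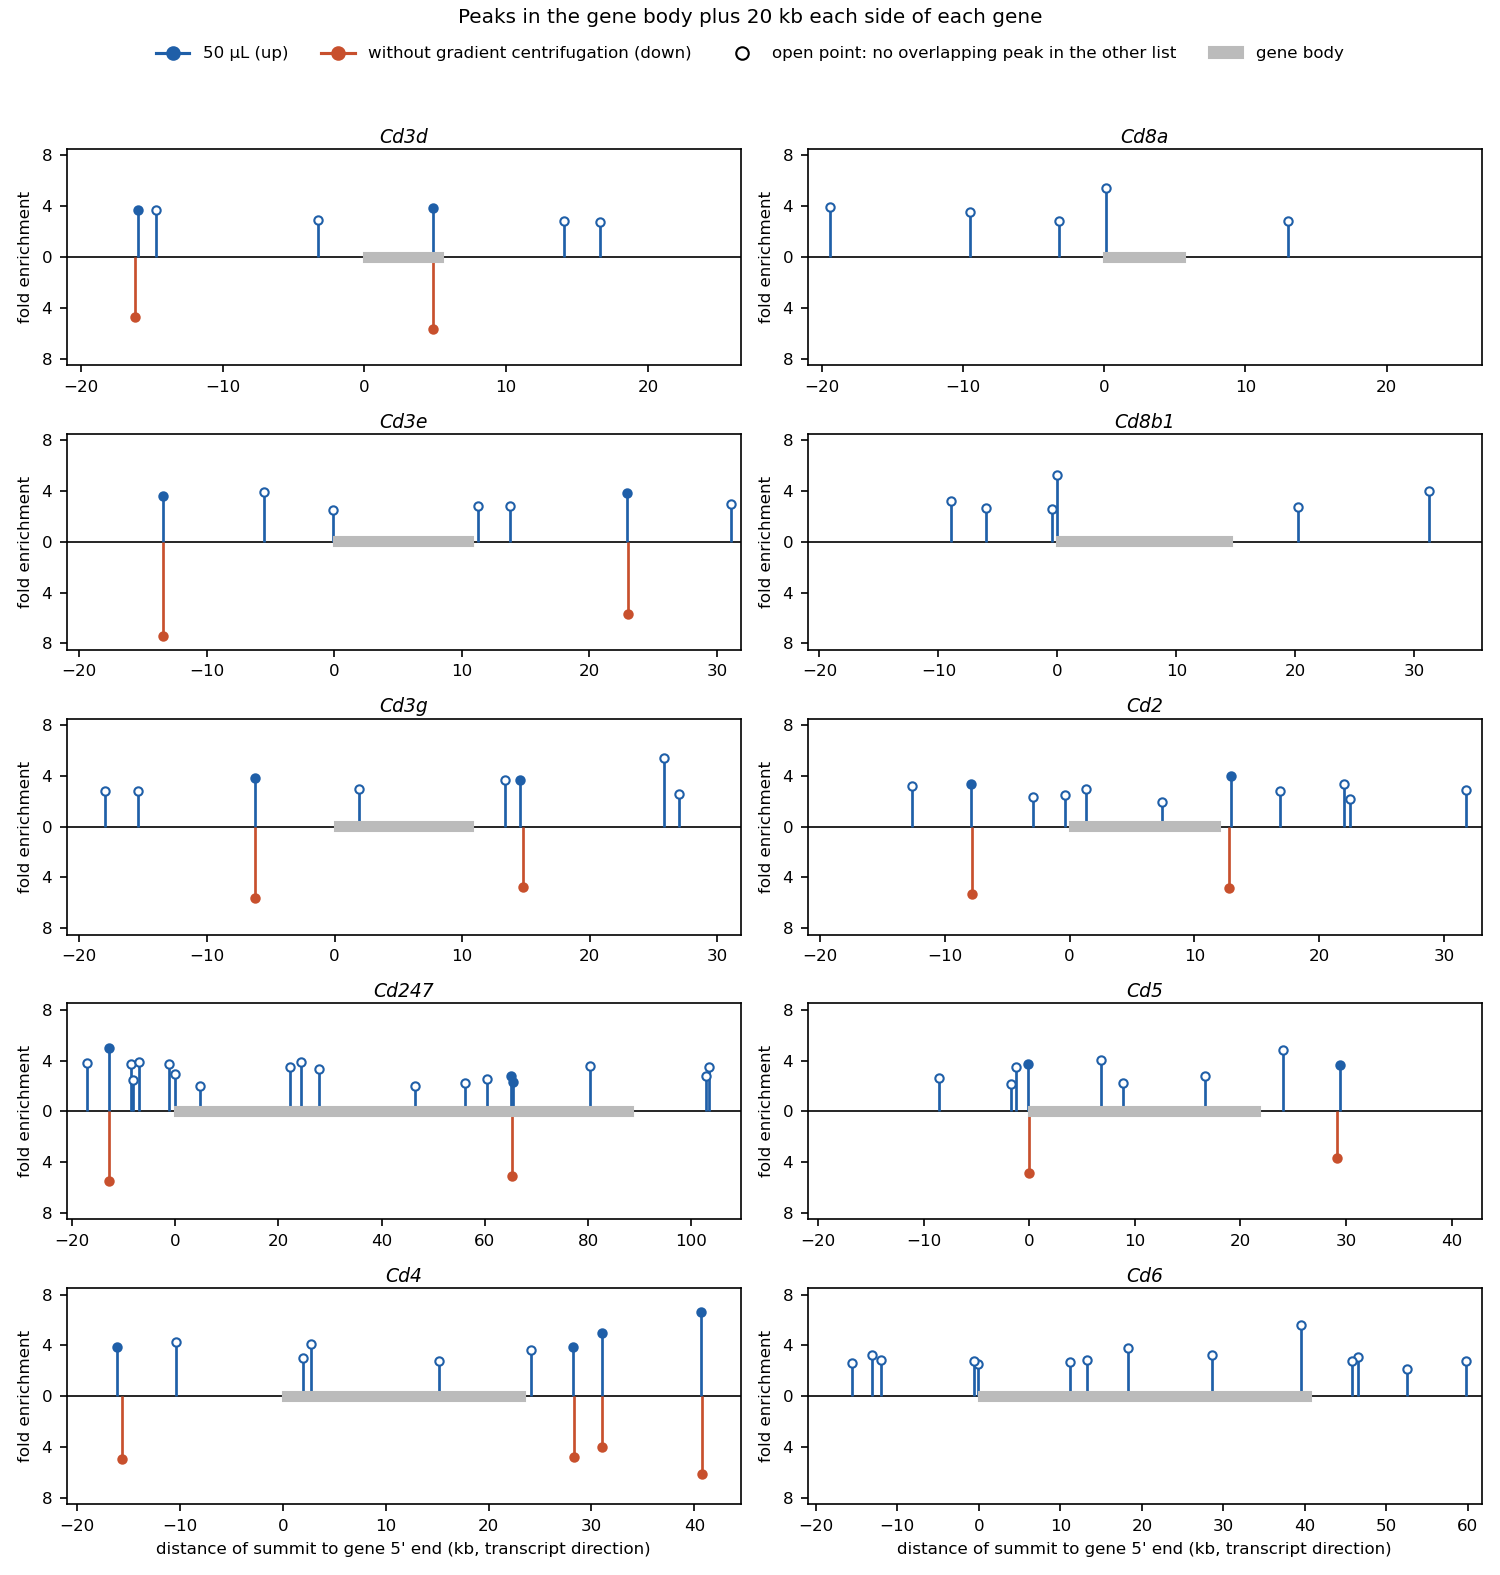
Every peak around each gene, placed by the distance of its summit to the 5' end of the gene in kb, in transcript direction, with its fold enrichment as height. Peaks of the 50 µL library point up and peaks without gradient centrifugation point down. Filled points overlap a peak of the other list, open points do not, and the grey bar is the gene body. Without gradient centrifugation the Cd3e peak 13402 bp upstream is the highest at 7.44, and Cd8a, Cd8b1 and Cd6 show peaks of the 50 µL library only.

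Cd3d, Cd3e and Cd3g, the genes of the CD3 chains, lie together on chromosome 9, so that their windows overlap and share peaks. Cd3g (chr9:44969572-44980431, minus strand) and Cd3d (chr9:44981786-44987339, plus strand) are transcribed away from each other, and Cd3e (chr9:44998740-45009627, minus strand) follows. Counted for each gene, Cd3d had 6 peaks in the 50 µL library and 2 without gradient centrifugation. Cd3e had 7 peaks in the 50 µL library and 2 without gradient centrifugation. Cd3g had 8 peaks in the 50 µL library and 2 without gradient centrifugation. No peak touched the short stretch between the 5' ends of Cd3g and Cd3d in either library. The nearest one was a 50 µL peak in an intron of Cd3g, 1925 bp inside that gene (fold enrichment 2.95, −log10 q 15.1).

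The peak shared by both libraries inside this cluster was at the far end of Cd3d. In the 50 µL library it spanned chr9:44986273-44987423, with its summit in an untranslated exon part 4855 bp from the 5' end, a fold enrichment of 3.86 and a −log10 q of 37.0. Without gradient centrifugation it spanned chr9:44986536-44986808, with a fold enrichment of 5.66 and a −log10 q of 14.1, and the summits lay 12 bp apart. It was the most significant 50 µL peak that touched any of these 3 genes, and it ran past the annotated end of Cd3d. In both libraries it also lay within 1 kb of a later annotated transcript start of Cd3d. For the human CD3D gene a T cell enhancer is known at the 3' end. Whether the mouse peak marks such an element was not tested.

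Cd3e, whose chain pairs with both the delta and the gamma chain, had a 5' end peak in the 50 µL library only. It spanned chr9:45009621-45010006 with its summit 70 bp before the 5' end, and it was weak, with a fold enrichment of 2.52 and a −log10 q of 7.64 (78.6% of the way down the list by significance). Stronger peaks lay farther upstream. One 50 µL peak was found 5543 bp before the 5' end (chr9:45014866-45015305, fold enrichment 3.92, −log10 q 21.9), and one 13470 bp before it (chr9:45022959-45023391, fold enrichment 3.60, −log10 q 15.4). The more distant one was also called without gradient centrifugation, 13402 bp before the 5' end, with a fold enrichment of 7.44 and a −log10 q of 14.7. These were the highest fold enrichment and the highest −log10 q among all 13 peaks of the 10 windows in that library. At Cd3e the promoter peak was thus weaker than the upstream peaks in the 50 µL library, and it was not called without gradient centrifugation.

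The sequences of the Cd3e promoter and of its shared upstream peak are shown to set a peak of one library beside a peak of both. They are RefSeq GRCm38.p6 sequence on the minus strand, 150 bases that end at the base before the 5' end (chr9:45009628-45009777) and 201 bases around the 50 µL summit of the upstream peak (chr9:45022997-45023197). Capitals here and in the following sequences mark matches, on either strand, to short consensus letters of factor families of blood cells. In the upstream peak they are TATAAA, read on the opposite strand, which 11.7% of all 50 µL summit windows of this length held, and the AP-1 letters TGANTCA, which 5.42% held. The promoter stretch held no match, but it is not the same kind of window. The 201 bases around the summit of the promoter peak held 1 match to the ETS letters CAGGAAG and 1 to the E-box CACCTG. Of all 50 µL summit windows, 11.2% held CAGGAAG and 13.1% held CACCTG.
Cd3e promoter: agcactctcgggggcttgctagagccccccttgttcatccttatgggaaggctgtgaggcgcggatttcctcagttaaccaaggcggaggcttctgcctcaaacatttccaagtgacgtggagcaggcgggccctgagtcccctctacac
Cd3e upstream peak: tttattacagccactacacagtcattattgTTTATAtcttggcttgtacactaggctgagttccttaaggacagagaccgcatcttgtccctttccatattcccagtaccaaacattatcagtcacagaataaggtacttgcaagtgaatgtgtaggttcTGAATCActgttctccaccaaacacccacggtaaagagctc

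Other peaks of the cluster belonged to neighbouring genes. One shared peak lay at the 5' end of Ube4a, which encodes a ubiquitin chain assembly factor, with a fold enrichment of 3.70 and a −log10 q of 27.5 in the 50 µL library, and of 4.75 and 9.12 without gradient centrifugation. The strongest 50 µL peak in the Cd3g window by both measures, 25798 bp beyond the 5' end of Cd3g (fold enrichment 5.43, −log10 q 40.0), was nearest to Ube4a among protein-coding genes and was not called without gradient centrifugation. It lay within 1 kb of a start of the non-coding gene Gm19121.

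Cd247 (chr1:165788681-165877277, plus strand), which encodes the zeta chain with the most signalling motifs of the complex, is the longest of the 10 genes. Its window held 19 peaks in the 50 µL library, 11 of them touching the gene body, and 2 without gradient centrifugation. Its promoter was marked in the 50 µL library by a peak at 64 bp past the 5' end (fold enrichment 2.93, −log10 q 13.7) and by one 1212 bp before it (fold enrichment 3.70, −log10 q 22.6), whose near edge came within 1 kb. Neither was called without gradient centrifugation. Upstream of the gene, 5 further 50 µL peaks were spread between 6956 and 17019 bp before the 5' end. Those from 6956 to 8450 bp before it lay within 1 kb of a transcript start of another gene, Gm16565. The summits of both promoter peaks also lay inside Gm16565, and the summit at 17019 bp lay inside the neighbouring gene Creg1.

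The strongest Cd247 peak by both measures was shared between the libraries and lay upstream. In the 50 µL library it spanned chr1:165775667-165775999, 12825 bp before the 5' end, with a fold enrichment of 5.02 and a −log10 q of 44.8, among the top 8.53% of the list. Without gradient centrifugation it spanned chr1:165775665-165775927, with a fold enrichment of 5.45 and a −log10 q of 12.5, and its summit lay 41 bp away. By distance the nearest protein-coding 5' end is that of Creg1, which encodes a secreted glycoprotein, so its assignment to Cd247 rests on the window alone. The other peak without gradient centrifugation lay in an intron 65295 bp into the gene (fold enrichment 5.06, −log10 q 11.5) and overlapped 2 separate 50 µL peaks, at 65050 bp (fold enrichment 2.78, −log10 q 10.6) and 65448 bp (fold enrichment 2.31, −log10 q 5.44). The remaining intron peaks of the 50 µL library included some of the weakest in its list, such as one at 46425 bp with a −log10 q of 2.80.

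The sequence under the upstream peak is shown because it is the most significant Cd247 peak and was called in both libraries (chr1:165775756-165775956, plus strand, 201 bases around the 50 µL summit). Its capitals are TATAAA on the opposite strand and the E-box CAGCTG just past the summit, which 9.03% of all 50 µL summit windows hold.
Cd247 upstream peak: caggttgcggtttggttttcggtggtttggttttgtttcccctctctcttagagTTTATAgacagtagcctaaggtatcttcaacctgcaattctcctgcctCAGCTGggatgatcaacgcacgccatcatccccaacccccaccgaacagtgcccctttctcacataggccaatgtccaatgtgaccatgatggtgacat

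Cd4 (chr6:124864692-124888221, minus strand), the coreceptor for MHC class II, had 9 peaks in its window in the 50 µL library and 4 without gradient centrifugation, the most of the 10 genes in that library. None of the 4 lay in the gene, and none lay closer than 15 kb to its 5' end. The gene body was touched by 3 peaks of the 50 µL library. Of these, 2 were in an intron near the start, at 2774 bp (chr6:124885288-124885583, fold enrichment 4.10, −log10 q 24.9) and at 2012 bp (chr6:124886063-124886350, fold enrichment 3.04, −log10 q 12.3) from the 5' end. The other was in a coding exon at 15224 bp (fold enrichment 2.78, −log10 q 7.01). The first intron of mouse Cd4 is known to hold a silencer that keeps the gene off in CD8 T cells. Whether either intron peak falls on it was not tested.

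The upstream side of Cd4 carried 2 peaks in the 50 µL library. One was 10327 bp before the 5' end (chr6:124898357-124898767) with a fold enrichment of 4.27 and a −log10 q of 31.3, and it had no counterpart without gradient centrifugation. The other was 16098 bp before it, with a fold enrichment of 3.85 and a −log10 q of 27.1, and was also called without gradient centrifugation with a fold enrichment of 4.98 and a −log10 q of 9.99. Its 2 summits lay 503 bp apart, and the nearest protein-coding 5' end was that of Lag3, an inhibitory receptor that also binds MHC class II. The other 3 shared peaks lay on the far side of Cd4, 28 to 41 kb from its 5' end and beyond its end, and were nearest to Gnb3 and P3h3, which encode a G protein subunit and a collagen-modifying enzyme. The one nearest to Gnb3, at 40682 bp in the 50 µL library, had the highest fold enrichment of all 83 peaks, 6.64, and a −log10 q of 44.9. Without gradient centrifugation its fold enrichment was 6.12 and its −log10 q 10.2. A 50 µL peak at the 5' end of Gpr162, an orphan receptor gene (fold enrichment 3.62, −log10 q 14.1), completed the set. By nearest 5' end, Cd4 thus had 3 peaks in the 50 µL library and 0 without gradient centrifugation.

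The strongest intron peak and the nearer upstream peak of Cd4 are shown because they were the 2 most significant peaks nearest to its own 5' end, in a gene with no 5' end peak. They are given on the minus strand, 201 bases around each 50 µL summit (chr6:124885347-124885547 and chr6:124898448-124898648). The upstream one held the E-box CACCTG on the opposite strand, which 13.1% of all 50 µL summit windows held, and the RUNX letters AACCACA, which 6.25% held. The intron one held no match.
Cd4 intron peak: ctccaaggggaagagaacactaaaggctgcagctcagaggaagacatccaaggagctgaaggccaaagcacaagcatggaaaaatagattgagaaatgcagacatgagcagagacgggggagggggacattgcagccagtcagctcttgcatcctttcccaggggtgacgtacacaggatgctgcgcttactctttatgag
Cd4 upstream peak: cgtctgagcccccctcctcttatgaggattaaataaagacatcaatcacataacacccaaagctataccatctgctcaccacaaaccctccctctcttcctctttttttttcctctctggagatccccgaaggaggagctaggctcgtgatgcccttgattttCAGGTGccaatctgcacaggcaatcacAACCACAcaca

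Cd8a (chr6:71373427-71379173) and Cd8b1 (chr6:71322788-71337494) encode the 2 chains of the CD8 coreceptor and follow each other on the plus strand of chromosome 6. Both had a distinct promoter peak in the 50 µL library. At Cd8a it spanned chr6:71373320-71373702 with its summit 111 bp past the 5' end, a fold enrichment of 5.45 and a −log10 q of 29.7. At Cd8b1 it spanned chr6:71322608-71322907 with its summit 14 bp before the 5' end, a fold enrichment of 5.23 and a −log10 q of 28.9. By fold enrichment the peaks stood in the top 8.05% and 9.83% of the 50 µL list, and among the 5' end peaks of the 10 genes they were the highest by that measure. The 2 promoter peaks were of nearly the same height, though 2 peaks of 1 library have no replicate error.

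Without gradient centrifugation neither gene had a peak anywhere in its window, although both promoter peaks ranked within the 25343 most significant peaks of the 50 µL list. The other 50 µL peaks around the pair were weaker. At Cd8a they lay 3185, 9522 and 19406 bp before and 12996 bp past the 5' end, with fold enrichments of 2.81 to 3.98 and −log10 q of 5.71 to 17.3. The one at 19406 bp lay between both genes and was counted for Cd8b1 as well. At Cd8b1 one further peak came within 1 kb of the 5' end, 413 bp before it (fold enrichment 2.62, −log10 q 5.42), and it was nearer to the 5' end of Smyd1, a muscle methyltransferase gene on the other side. The Cd8b1 promoter peak also came within 1 kb of a transcript start of Smyd1. Of the 1697 protein-coding genes with 5 peaks in the 50 µL library, as Cd8a has, 124 (7.31%) had none without gradient centrifugation. Of the 1729 with 6 peaks, as Cd8b1 has, 89 (5.15%) had none. Both sets were matched on peak number alone, and not on the significance of the peaks. Cd8a and Cd8b1 each had 1 window peak among the 25343 most significant, so the 2 shares do not come from genes like them in this respect. The pair shares a window stretch and a region, so the 2 empty windows are not separate observations.

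The promoters of the pair are shown because they carry their highest peaks. Each is the 150 bases before the 5' end on the plus strand (chr6:71373277-71373426 and chr6:71322638-71322787). At Cd8b1 the capitals mark 3 matches to the KLF/SP letters GGGCGG, all on the opposite strand, past a CA repeat. Of all protein-coding promoter stretches of this length, 35.0% held these letters. The Cd8a stretch held no match to any of the letters searched, but it ends before the summit of the promoter peak. That summit lay 111 bp past the 5' end, and the searched window around it held 1 match to the KLF/SP letters. Of all 50 µL summit windows, 11.7% held these letters.
Cd8a promoter: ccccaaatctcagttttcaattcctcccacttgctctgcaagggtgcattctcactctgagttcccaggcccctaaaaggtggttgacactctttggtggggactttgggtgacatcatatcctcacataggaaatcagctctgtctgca
Cd8b1 promoter: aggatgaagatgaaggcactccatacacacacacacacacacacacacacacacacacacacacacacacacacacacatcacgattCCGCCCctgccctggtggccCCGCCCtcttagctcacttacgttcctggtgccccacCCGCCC

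Cd2 (chr3:101275899-101287939, minus strand), an adhesion receptor that binds CD48 in the mouse, had 11 peaks in the 50 µL library and 2 without gradient centrifugation. For all 13 of them Cd2 was the nearest protein-coding gene by 5' end. The peak at its 5' end, 346 bp before it (chr3:101288013-101288520), was called in the 50 µL library with a fold enrichment of 2.46 and a −log10 q of 17.3. A stronger one lay in an intron 1274 bp past the 5' end (fold enrichment 3.00, −log10 q 30.9). Neither was called without gradient centrifugation.

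The most significant peak of all 83 in the 50 µL library lay just past the end of Cd2, 12900 bp from its 5' end (chr3:101274805-101275300), with a fold enrichment of 3.99 and a −log10 q of 47.9, in the top 7.03% of the list. It was also called without gradient centrifugation (chr3:101274835-101275312, fold enrichment 4.82, −log10 q 13.7), with summits 142 bp apart. The other shared peak was upstream, 7870 bp before the 5' end in the 50 µL library (fold enrichment 3.35, −log10 q 24.7) and 7819 bp before it without gradient centrifugation (fold enrichment 5.28, −log10 q 14.4). Of the 583 protein-coding genes with 11 peaks in the 50 µL library, the median count without gradient centrifugation was 3. Farther out, 4 peaks of the 50 µL library at 16838 to 31735 bp past the 5' end had no counterpart, among them one at 21962 bp with a −log10 q of 32.7.

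The sequence under the peak past the end of Cd2 is shown because it has the highest significance of the 83 (chr3:101274939-101275139, minus strand, 201 bases around the 50 µL summit). Its capitals are the E-box CACCTG beside the summit and the ETS letters CAGGAAG, which 11.2% of all 50 µL summit windows hold.
Cd2 downstream peak: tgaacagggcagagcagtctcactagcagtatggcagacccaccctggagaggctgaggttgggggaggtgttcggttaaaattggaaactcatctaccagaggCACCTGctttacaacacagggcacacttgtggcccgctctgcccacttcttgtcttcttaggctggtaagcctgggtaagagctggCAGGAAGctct

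Cd5 and Cd6 are related genes for scavenger receptor type proteins that lie near each other on chromosome 19, both on the minus strand. CD5 dampens receptor signalling, and CD6 binds ALCAM on other cells. Cd5 (chr19:10717116-10739002) had 9 peaks in the 50 µL library and 2 without gradient centrifugation. It was the only one of the 10 genes with a 5' end peak in both libraries. Its 50 µL peak spanned chr19:10738910-10739245, 84 bp before the 5' end, with a fold enrichment of 3.76 and a −log10 q of 31.3. Without gradient centrifugation it spanned chr19:10738968-10739215, 22 bp before the 5' end, with a fold enrichment of 4.89 and a −log10 q of 9.14. By −log10 q the Cd5 promoter peak was the most significant 5' end peak of the 10 genes in the 50 µL library, followed by Cd8a at 29.7 and Cd8b1 at 28.9.

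A second group of 50 µL peaks flanked the Cd5 promoter, with one 1272 bp before the 5' end (fold enrichment 3.52, −log10 q 25.9) and one in an intron 6754 bp past it (fold enrichment 4.01, −log10 q 28.8). Within the 50 µL library the highest fold enrichment at Cd5, 4.84 with a −log10 q of 27.7, belonged to a peak beyond the end of the gene, 24060 bp from the 5' end. None of these 3 was called without gradient centrifugation. The second shared peak was near the edge of the window and nearest to Vps37c, with a fold enrichment of 3.63 in the 50 µL library and 3.68 without gradient centrifugation, where its −log10 q of 3.46 was the lowest of the 13.

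Cd6 (chr19:10789341-10830058) had 14 peaks in the 50 µL library, the second highest density of the 10 genes, and none without gradient centrifugation. Of the 296 protein-coding genes with 14 peaks in the 50 µL library, 5 (1.69%) had none without gradient centrifugation. These genes were matched on peak number alone, and not on the significance of their peaks, with which sharing rose in the whole list. Most Cd6 peaks were of low significance. Its promoter peaks, 74 bp (chr19:10829949-10830223) and 564 bp before the 5' end, had fold enrichments of 2.56 and 2.79 and −log10 q of 9.02 and 11.5. Only 1 of the 14 was within the 25343 most significant peaks of the 50 µL list. That one lay in an intron near the end of the gene, 39509 bp from the 5' end (chr19:10790331-10790719), with a fold enrichment of 5.61 and a −log10 q of 47.4, in the top 7.29% of the list. Upstream, 2 peaks lay inside Slc15a3, which encodes a peptide transporter, within 1 kb of one of its later transcript starts, with −log10 q of 15.6 and 21.9.

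The Cd5 promoter is shown as the one 5' end called in both libraries (150 bases before the 5' end, chr19:10739003-10739152), beside the intron peak of Cd6 as the strongest peak that was called in the 50 µL library only among those nearest to 1 of the 10 genes (201 bases around the summit, chr19:10790449-10790649), both on the minus strand. The Cd5 stretch held the E-box CACCTG once on each strand and the ETS letters CAGGAAG once. Of all protein-coding promoter stretches of 150 bases, 10.8% held CACCTG and 6.51% held CAGGAAG. The Cd6 window held no match.
Cd5 promoter: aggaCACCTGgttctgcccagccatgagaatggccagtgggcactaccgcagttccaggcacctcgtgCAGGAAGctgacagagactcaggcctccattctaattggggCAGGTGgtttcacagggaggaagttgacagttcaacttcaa
Cd6 intron peak: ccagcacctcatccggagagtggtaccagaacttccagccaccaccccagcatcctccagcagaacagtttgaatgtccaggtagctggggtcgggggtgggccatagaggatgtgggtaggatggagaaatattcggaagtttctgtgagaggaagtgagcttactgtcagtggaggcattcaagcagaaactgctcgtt

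Seen together, the 83 peaks of the 50 µL library were of middling strength for their list. Most lay away from the 5' ends of the 10 genes, but windows that reach 20 kb past each gene favour this. At the gene's own 5' end lay 10.6% of the gene and peak pairs, against 13.0% over all protein-coding genes. The distances and positions that follow were not counted over all genes. The summits of the 83 peaks were within 1 kb of the nearest 5' end of the 10 genes for 9 peaks, at 1 to 5 kb for 11, at 5 to 20 kb for 34, at 20 to 100 kb for 27 and farther for 2. Of the 13 without gradient centrifugation, 1 was within 1 kb, 1 at 1 to 5 kb, 6 at 5 to 20 kb and 5 at 20 to 100 kb. Of the 83 peaks, 21 came within 1 kb of an annotated transcript start of a gene other than the 10, as did 2 of the 13. Of the 83 summits, 27 lay inside 1 of the 10 genes, 23 of them in introns, 3 in untranslated exon parts and 1 in a coding exon. For 64 of the 83, and for 6 of the 13 without gradient centrifugation, the nearest protein-coding 5' end belonged to 1 of the 10 genes. The 64 include the peaks 102798 and 103343 bp past the 5' end of Cd247. Both have their summits inside Pou2f1 and lie within 1 kb of an annotated transcript start of Pou2f1. The median −log10 q of the 83 was 14.0, against 13.1 for the list, and 4 of them were in its top 10%. The median of the 13 was 10.2, against 10.4 for their list, and 0 of them were in its top 10%.

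All 13 peaks without gradient centrifugation overlapped a 50 µL peak (exact 95% interval 75.3% to 100%, counting error only), where 95.3% of that whole list did. In the other direction, 14 of the 83 peaks of the 50 µL library (16.9%, exact 95% interval 9.54% to 26.7%, counting error only) overlapped a peak of the list without gradient centrifugation, against 26.3% of the whole 50 µL list, which lies inside the interval. Among the 83, as in the list, the share was higher at higher significance. Below a −log10 q of 10 it was 1 of 27, against 3.81% of the list. From 10 to 20 it was 4 of 27, against 15.8% of the list. From 20 to 30 it was 4 of 19, against 41.9% of the list, and from 30 to 50 it was 5 of 10, against 68.2%. None of the 83 reached 50, the range in which 89.3% of the list was shared. In each of these 4 ranges the share of the 10 windows was below that of the list. The list's values lay inside the counting intervals of the 10 windows in all 4. With 10 to 27 peaks in a range these intervals are wide, so they cannot show that the shares are alike.

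**Figure D3:**
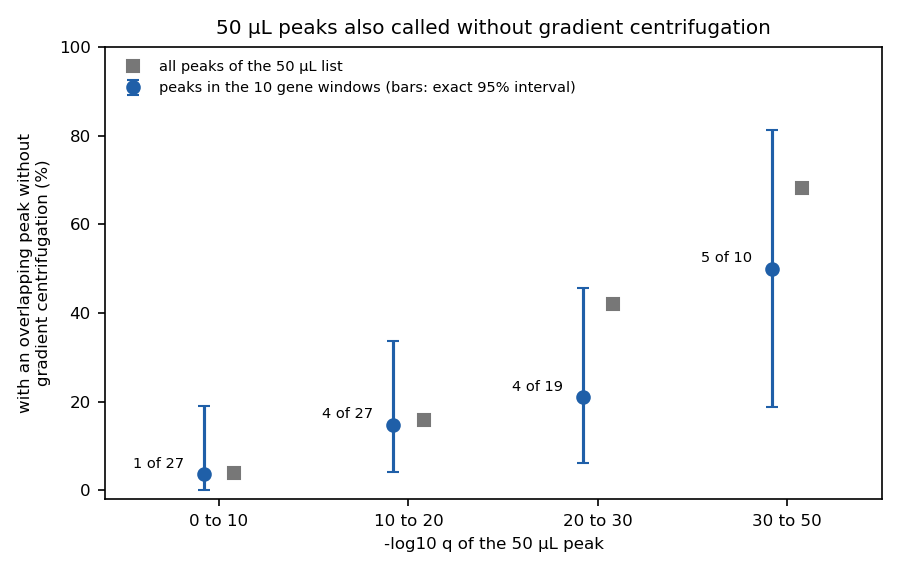
Share of 50 µL peaks that overlap a peak of the list without gradient centrifugation, in %, by the −log10 q of the 50 µL peak. Blue points are the peaks in the 10 gene windows with exact 95% intervals for counting error, and grey squares are the whole 50 µL list. The blue points run through 1 of 27, 4 of 27, 4 of 19 and 5 of 10, at or below the grey squares, which lie inside their intervals.

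Letters of the 12 searched motifs differed in frequency between the summits of the 10 windows and the whole list by a few peaks in either direction. In the 83 windows of 201 bases of the 50 µL library, the ETS letters CAGGAAG were in 12 (14.5%, list 11.2%), the E-box CACCTG in 13 (15.7%, list 13.1%) and the E-box CAGCTG in 9 (10.8%, list 9.03%). The CTCF core AGGGGGC was in 8 (9.64%, list 5.57%), the GATA letters AGATAA in 9 (10.8%, list 9.78%) and the TCF/LEF letters ATCAAAG in 4 (4.82%, list 2.84%). These 6 were more frequent than in the list, and the other 6 were less frequent. The RUNX letters AACCACA were in 4 (4.82%, list 6.25%), the AP-1 letters in 4 (4.82%, list 5.42%), the KLF/SP letters in 9 (10.8%, list 11.7%) and TATAAA in 8 (9.64%, list 11.7%). The second ETS form CCGGAAG was in 1 (1.20%, list 2.51%), and so was the second CTCF form AGGTGGC (1.20%, list 4.44%).

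Without gradient centrifugation 13 windows leave each share with a wide counting error. The CTCF core was in 3 of them (23.1%, list 9.24%), the E-box CAGCTG in 3 (23.1%, list 11.8%), the second ETS form in 2 (15.4%, list 6.70%), the E-box CACCTG in 2 (15.4%, list 15.9%) and the KLF/SP letters in 2 (15.4%, list 22.6%). The first ETS form (list 13.9%), the second CTCF form (list 8.25%), TATAAA (list 7.07%), the RUNX letters (list 6.24%) and the AP-1 letters (list 5.05%) were in 1 each (7.69%). The GATA letters (list 6.84%) and the TCF/LEF letters (list 2.26%) were in 0 of 13. This allows a share of up to about 23.1%, by the approximation of 3 divided by the number of windows. A match is a description of the letters and does not show that a factor was bound.

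Other gene lists of spleen cells place the 10 genes. They were T cell receptor signalling (22 genes, for kinases, adaptors and phosphatases that act behind the receptor), B cell surface (10 genes) and myeloid surface (10 genes). The median density in the 50 µL library was 14.4 peaks per 100 kb for the 10 T cell surface genes and 15.7 for the signalling genes. It was 20.2 for the B cell surface genes and 7.70 for the myeloid surface genes. A 5' end peak was present in the 50 µL library for 7 of the 10 T cell surface genes, 21 of 22 T cell receptor signalling genes, 9 of 10 B cell surface genes and 6 of 10 myeloid surface genes. In the 50 µL list of equal length it was present for 4 of the 10 T cell surface genes, 10 signalling genes, 7 B cell surface genes and 1 myeloid surface gene. Without gradient centrifugation it was present for 1 T cell surface gene, 7 signalling genes, 6 B cell surface genes and 0 myeloid surface genes. Signalling genes with a 5' end peak in both libraries were Fyn, Lat, Ptprc, Ptpn22, Grap2, Rasgrp1 and Pag1, of which Ptprc (CD45) is found on all white blood cells. The B cell surface genes with one in both were Cd79b, Ms4a1, Cd22, Cr2, Fcer2a and Cd37. The part of cell numbers in these counts was not tested, and the peak lists do not hold cell numbers.

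**Figure D4:**
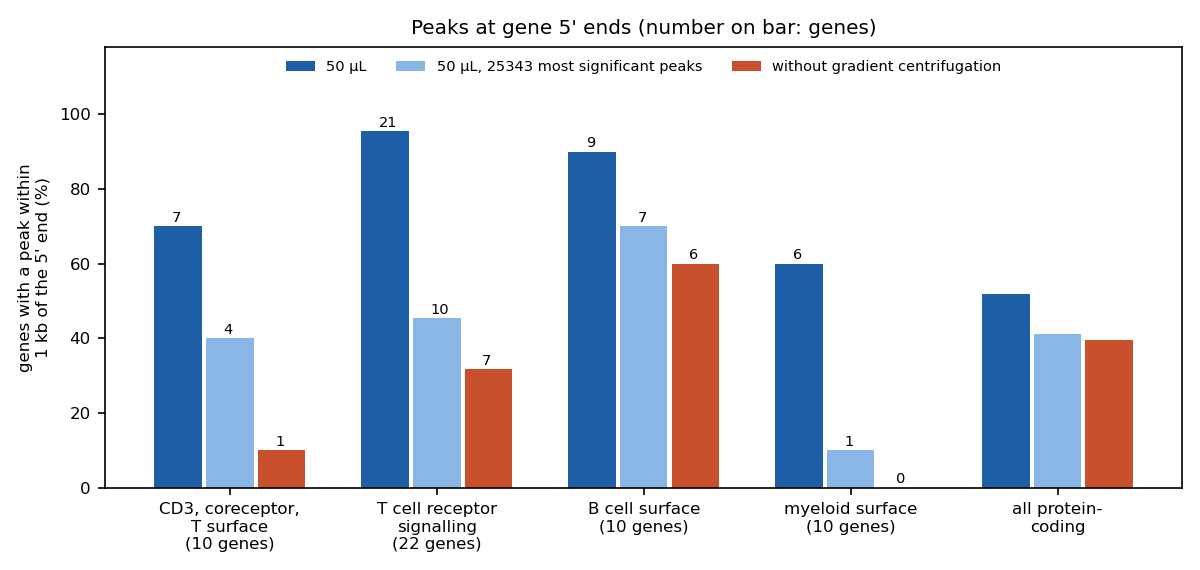
Percent of genes with a peak within 1 kb of the 5' end, for the 10 genes, 3 other gene lists and all protein-coding genes, in the 50 µL library, in its 25343 most significant peaks and without gradient centrifugation. The number on a bar is the number of genes. Without gradient centrifugation 1 of the 10 genes has a peak, against 6 of 10 B cell surface genes and 39.6% of all protein-coding genes.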

How the data were processed

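Mouse FFPE spleen was profiled with scFFPE-ATAC in 2 libraries. The authors aligned the reads to mm10 (BWA mem, samtools), dropped duplicates with their own script and called peaks for each library with MACS2, without a model, at a shift of 0 and a q-value threshold of 0.01. They then took out blacklisted regions with bedtools. Reads were not moved to the Tn5 insertion, so a summit need not lie at the insertion itself. The size of this offset was not measured, and it bears on the summit distances and the motif windows. In the deposited lists, fold enrichment is the ratio of pileup to local background, and the −log10 p and −log10 q values are those of MACS2. The deposited integer score and the −log10 p were not used. All of these depend on depth, which is unknown from the lists.

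Genes were those of GENCODE vM21, and peak coordinates were checked against the chromosome lengths of RefSeq GRCm38.p6, from which sequences were read. Windows were the gene body plus 20 kb on each side, a peak belonged to a window with an overlap of at least 1 bp, and the same overlap defined a shared peak. A peak was at the 5' end within 1 kb of the outer end of the gene model. The motif search covered both strands of 201 bp centred on each summit and of the 150 bp before each 5' end. The 166 peaks of the 50 µL list on scaffolds were left out of the sequence search. The letters searched were the 10 spelled out beside the results and 2 variants, CCGGAAG as a further form of the ETS letters, and AGGTGGC as a further form of the CTCF core.

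The genes, lists and motifs were chosen with earlier results of these data known. Named genes were the 10 genes, genes with a 5' end and a peak near it inside a window, and genes of the other lists with a 5' end peak in both libraries; other neighbours were named as nearest genes after their values were seen. With 1 library per condition no test was made, and shares have exact (Clopper-Pearson) 95% intervals. Counting and search were checked on simulated data. Alternatives were other peak thresholds, windows, overlap rules and list lengths. Scripts ran in Python 3.11.15 (scipy 1.17.1, pandas 2.3.3, numpy 2.4.6, matplotlib 3.10.9).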

Additional observations from a re-analysis of the deposited data

How the results depend on the processing

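Of 38 recomputed values, 20 stayed within 1.5 times the count, or inside the exact interval of the share, and 18 moved beyond that. For genes with a 5' end peak, the 7 of the 50 µL library became 2 with a fold enrichment of at least 4 and 4 in the list of equal length. The 1 without gradient centrifugation became 2 when any annotated transcript start counted, which added Cd3d. For distinct peaks, the 83 of the 50 µL library became 11 with a fold enrichment of at least 4 and 23 in the list of equal length, because fewer peaks were kept. With other window sizes they became 48 (5 kb), 127 (50 kb) and 31 (gene body alone), and the 13 without gradient centrifugation became 6, 27 and 3, and 6 when only peaks nearest to 1 of the 10 genes counted. The shared 16.9% of the 50 µL peaks became 8.43% with 50% reciprocal overlap and 39.1% in the list of equal length, and 10.8% with summits within 150 bp, which is inside the interval of the 16.9%. The shared 100% without gradient centrifugation became 53.8% with 50% reciprocal overlap, 69.2% with summits within 150 bp, 18.2% with a fold enrichment of at least 4 in both lists and 69.2% against the list of equal length. Fold enrichment limits act unequally on the lists, whose medians are 3.29 in the 50 µL library and 5.24 without gradient centrifugation. No paired analysis was possible because each condition had 1 library and no test was made. The lists hold no depth or cell numbers, which with the lack of replicates limits every comparison between the libraries.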
